A study of Mus musculus with 14 samples.

Results

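The transcripts of 9 genes that write, copy, read and erase DNA methylation were followed across fetal and adult prostate cells of the mouse. They are Dnmt1, Uhrf1 and Hells, Dnmt3a and Dnmt3b, Tet1, Tet2 and Tet3, and Mbd2, chosen by name, which makes 9 of the 18193 genes that the array annotation assigns to a probe set. The 9 genes have 24 probe sets, and each gene is described by its brightest probe set, taken by mean log2 signal over the arrays, with the others given beside it. The study used 14 arrays. Epithelium of the urogenital sinus (UGE), the fetal tissue from which the prostate grows, was taken from C57BL/6 embryos of 16 days and gave 3 arrays. Cells of the proximal ducts of adult males (C57BL by the labels, C57BL/6 by the methods), aged 6 to 8 weeks by the labels and 6 by the methods, were sorted by flow cytometry by the brightness of the surface antigen Sca-1 into Sca-1Hi (3 arrays), Sca-1Lo (4 arrays) and Sca-1Neg (4 arrays). The study takes Sca-1Hi as enriched in adult stem cells, Sca-1Lo in transit-amplifying cells and Sca-1Neg as the most mature. No sorting against blood or vessel cells is given. By the methods UGE was dissected and not sorted by Sca-1, so age, dissection and sorting cannot be told apart in a comparison of UGE with an adult fraction.

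Methyl groups on cytosines of CpG pairs are set on bare DNA by the de novo methyltransferases Dnmt3a and Dnmt3b. After each round of replication the new strand lacks them, Uhrf1 binds such hemimethylated sites and recruits Dnmt1, which copies the pattern, and the chromatin remodeller Hells (Lsh) opens packed DNA for this step. Tet1, Tet2 and Tet3 oxidize the methyl group, the first step of its removal, and Mbd2 binds methylated CpG pairs and brings the NuRD deacetylase complex to them. Transcript levels say nothing directly of the methylation itself, which was not measured.

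Over all probe sets the median signal of an array ran from 64.2 to 80.8. Markers of other cell types differed between the groups. Of 14 endothelial genes, 13 were called higher in Sca-1Hi and 12 in Sca-1Lo than in Sca-1Neg, with summed signals of 17594 to 31426, 9223 to 21989 and 2037 to 6324, and 9 were called lower in UGE (268 to 1234). Of 18 leukocyte genes, 15 were called lower in Sca-1Hi than in Sca-1Neg, where their sum ran from 8555 to 93672, against 1512 to 3157 in Sca-1Hi, and 10 were lower in UGE (1885 to 2955). All 11 smooth muscle and pericyte genes were called lower in UGE than in Sca-1Neg, and 6 were in Sca-1Hi, with sums of 39769 to 120308 in Sca-1Neg, 11390.1 to 36094 in Sca-1Hi and 1864 to 5270.1 in UGE. All 8 basal keratin and adhesion genes were called higher in Sca-1Hi, and the 7 secreted products of the adult prostate measured here were all called lower in UGE. No basal or luminal marker was at or below a signal of 20 on any array, while up to 9 endothelial ones were on a UGE array and up to 7 leukocyte ones on a Sca-1Hi array. The part of other cell types in the members' differences was not tested. In such bulk samples, fewer cells of a type and less RNA per cell cannot be told apart. The labels do not say that samples of a group came from separate animals, so p-values measure the spread between these samples, which may be technical.

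A member was called at a Benjamini-Hochberg adjusted p under 0.05, from limma over 41031 probe sets, together with a change over 1.75-fold. In UGE, 7 of the 9 members were called higher than in Sca-1Neg and none lower, where 16.3% of 17136 genes were called higher and 12.9% lower. The study's methods ran a t-test on transcripts selected beforehand, and a t-test over all 41031 probe sets, which is not that procedure, called 4 of them (Dnmt1, Uhrf1, Hells and Dnmt3a). The members' median difference was 1.92 on the log2 scale, against 0.07 over all genes. Against Sca-1Hi, 6 were higher in UGE (15.8% of all genes), and against Sca-1Lo the same number was (13.4%), with medians of 1.20 and 1.62. Of the 9 members, the arrays of UGE did not overlap those of Sca-1Neg for 7 (35.9% of all genes), of Sca-1Hi for 8 (52.5%) and of Sca-1Lo for 6 (41.4%). Among the adult fractions 1 member was called, Tet3 in Sca-1Hi against Sca-1Neg (6.11% of all genes higher and 5.19% lower), none in Sca-1Lo against Sca-1Neg (2.51% either way) and none in Sca-1Hi against Sca-1Lo (0.0992%). At an unadjusted p under 0.05 the last 2 comparisons held 1 member (Tet3) and 2 (Tet2 and Tet3), and the t-test over all probe sets with the same adjustment and fold minimum called none. The arrays did not overlap for 3 members in Sca-1Hi against Sca-1Neg (21.1%), for none in Sca-1Lo against Sca-1Neg (6.71%) and for 1, Tet3, in Sca-1Hi against Sca-1Lo (12.1%). The members' medians in these comparisons were 0.18, 0.15 and 0.07, against 0.03, 0.08 and -0.04 over all genes. The comparisons with Sca-1Neg share its 4 arrays, and those with UGE share its 3. Among the adult fractions the mean log2 signal was highest in Sca-1Lo for Uhrf1 and Hells, in Sca-1Hi for Dnmt1, Tet2, Tet3 and Mbd2, and in Sca-1Neg for Dnmt3a, Dnmt3b and Tet1, and no neighbours in these orders were called apart.

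**Figure D1:**
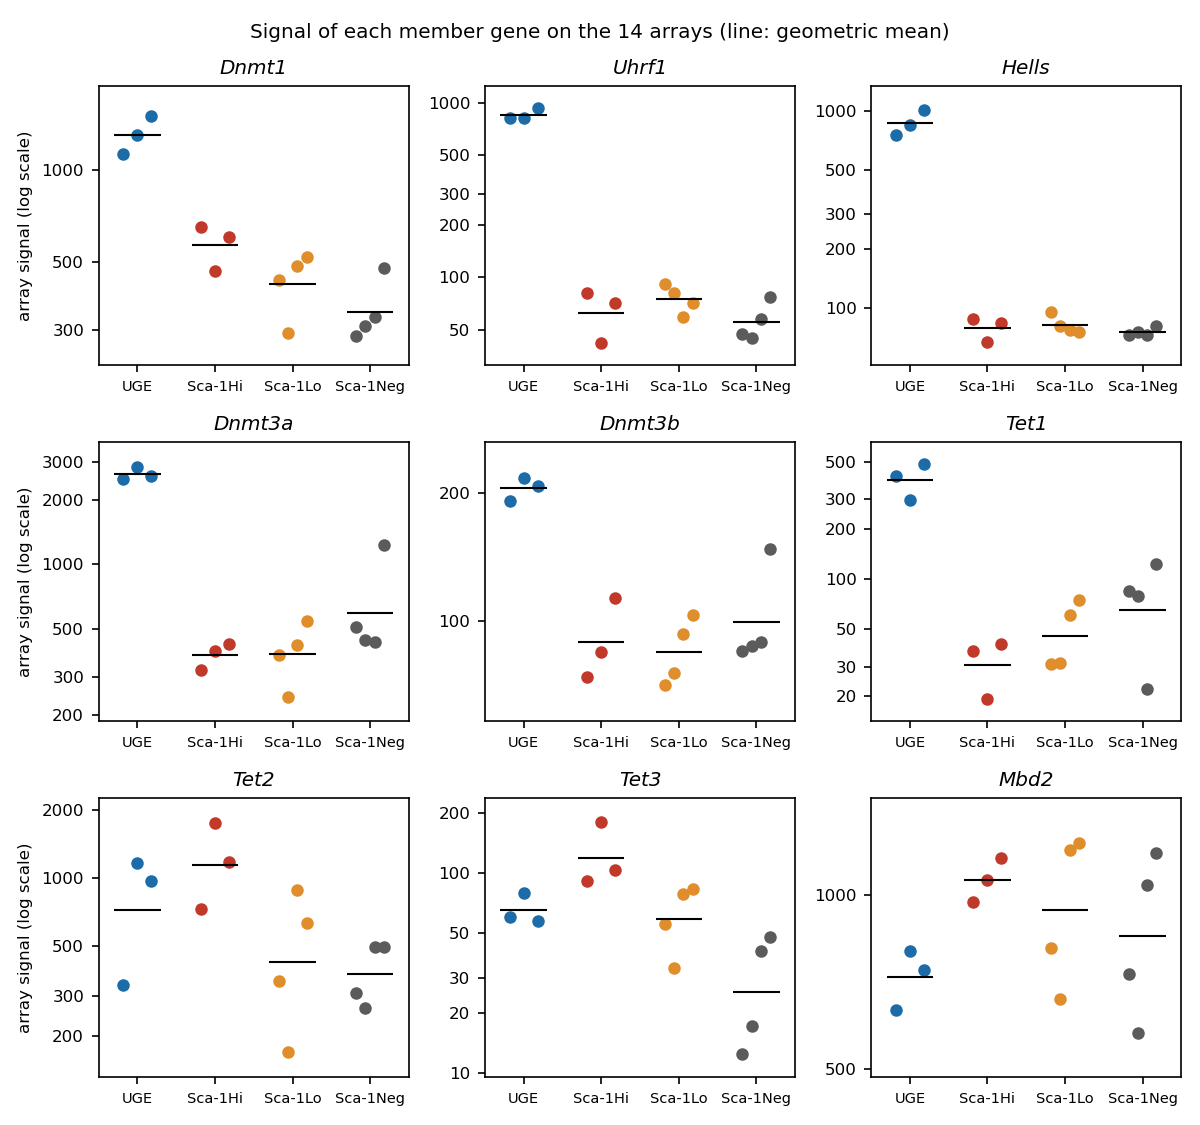
Signal of each member gene (log axis, separate range for each panel) on the 3 UGE, 3 Sca-1Hi, 4 Sca-1Lo and 4 Sca-1Neg arrays, 1 point an array, with the geometric mean of a group as a line. All 3 UGE arrays lie above all 11 adult arrays for Dnmt1, Uhrf1, Hells, Dnmt3a, Dnmt3b and Tet1, and not for Tet2, Tet3 or Mbd2.

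The maintenance genes separated the fetal epithelium from every adult fraction, as Dnmt3a, Dnmt3b and Tet1 did (below). Uhrf1, the reader of hemimethylated sites, had signals of 816, 816 and 930.3 in UGE. On the adult arrays it read 81.6, 41.8 and 71.2 in Sca-1Hi, 91.5, 81.2, 59.1 and 71.5 in Sca-1Lo and 46.9, 44.4, 57.5 and 76.8 in Sca-1Neg. The highest adult array lay far under the lowest fetal one, and the adult fractions overlapped one another. The difference from Sca-1Neg was 3.95 ± 0.28 (SE) on the log2 scale, a 15.5-fold change (adjusted p = 7.32e-07), the largest among the members. Against Sca-1Hi it was 3.77 ± 0.30 (SE) (adjusted p = 2.11e-06).

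Hells, the remodeller, gave 758, 845 and 1015 in UGE. Its adult signals were 88.0, 67.3 and 84.3 in Sca-1Hi, 95.3, 80.9, 77.5 and 75.3 in Sca-1Lo and 72.8, 75.2, 73.3 and 80.6 in Sca-1Neg. All 11 adult arrays of this probe set sat in a narrow band with no gap between fractions. UGE exceeded Sca-1Neg by 3.52 ± 0.21 (SE) on the log2 scale (adjusted p = 1.18e-07), Sca-1Hi by 3.45 and Sca-1Lo by 3.40. Sca-1Hi and Sca-1Neg differed by 0.07, with a 95% interval of -0.37 to 0.52, and Sca-1Lo and Sca-1Neg by 0.12 (-0.29 to 0.53). Among the members this was the narrowest interval between adult fractions.

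Dnmt1, the methyltransferase that copies the pattern, was also higher in the fetal epithelium, by a smaller difference. It read 1127, 1301 and 1512 in UGE and 649, 469 and 604 in Sca-1Hi. In Sca-1Lo it read 438, 292, 486 and 519, and in Sca-1Neg 287, 309, 330.3 and 477. The group means fell in the order UGE, Sca-1Hi, Sca-1Lo, Sca-1Neg, with overlap between each adult neighbour. UGE exceeded Sca-1Neg by 1.92 ± 0.27 (SE) on the log2 scale, 3.80-fold (adjusted p = 0.000166), and Sca-1Hi by 1.20 ± 0.29 (SE) (adjusted p = 0.00749). The difference between Sca-1Hi and Sca-1Neg, 0.73 ± 0.27 (SE), was not called (adjusted p = 0.0922), and the Sca-1Neg array of 477 lay inside the Sca-1Hi range. Whether the fetal difference of Dnmt1 differs from that of Uhrf1 or Hells was not tested.

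The 3 maintenance genes were higher in UGE, as were Dnmt3a, Dnmt3b, Tet1 and the DNA replication genes described below. Many replication genes are known targets of the cell cycle factors of the E2F family, and promoters of the members were searched for E2F letters. RefSeq (build GRCm38.p6) lists 13 start sites for 8 of the 9 members. The 250 bases before each start were searched on both strands for the E2F letters TTTCCCGC, TTTCGCGC, TTTGCCGC, TTTGGCGC. They occur once each at 1 of the 3 Dnmt1 starts, at 1 of the 2 Uhrf1 starts and at the Hells start, and at none of the other 10, while 1.86% of all 32851 promoters and 25% of the 28 found for the DNA replication list hold them. The stretches are written 5′ to 3′ on the gene's strand with the matched letters in capitals. They lie at chr9:20952805-20952872 (minus strand), chr17:56304098-56304165 (plus) and chr19:38930898-38930965 (plus).
Dnmt1: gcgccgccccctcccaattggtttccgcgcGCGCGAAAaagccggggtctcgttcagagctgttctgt
Uhrf1: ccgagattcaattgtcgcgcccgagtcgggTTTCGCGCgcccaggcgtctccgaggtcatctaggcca
Hells: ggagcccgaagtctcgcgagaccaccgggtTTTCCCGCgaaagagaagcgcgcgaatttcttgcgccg
The match begins 219 bases before the Dnmt1 start, 185 before that of Uhrf1 and 62 before that of Hells, and in Dnmt1 it stands on the opposite strand. CpG pairs were frequent in the members' promoters, with a median of 21 in 250 bases against 6 over all promoters. Each E2F sequence searched holds a CpG pair itself, and matches were not counted in promoters of like CpG content. The letters CCAAT, searched in the same way, occur in 38.5% of the members' promoters and 33.8% of all. A match of letters is a description and shows no binding.

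The other probe sets of the maintenance genes gave the same calls in UGE. For Dnmt1 the differences from Sca-1Neg were 1.99 and 1.85 on the log2 scale, for Uhrf1 2.96 and for Hells 3.33 and 2.36, all called higher. The second of these Hells probe sets placed all Sca-1Hi arrays (42.2 to 58.7) above those of Sca-1Neg (19.6 to 36.8) and of Sca-1Lo (15.3 to 33.7). Some of these Sca-1Neg and Sca-1Lo signals lie under 20. The differences of 0.9996 and 1.04 on the log2 scale were not called (adjusted p = 0.0985 and 0.418), and the other 2 Hells probe sets overlapped. The second Uhrf1 probe set was dim, at or below 18.9 on every adult array. The Dnmt1 probe set used here and 1 of the others are of a design (x_at) that can bind related transcripts, and the remaining one is not. Of all 24 probe sets, 19 were called higher in UGE than in Sca-1Neg, against 14.9% of all probe sets, and none lower.

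**Figure D2:**
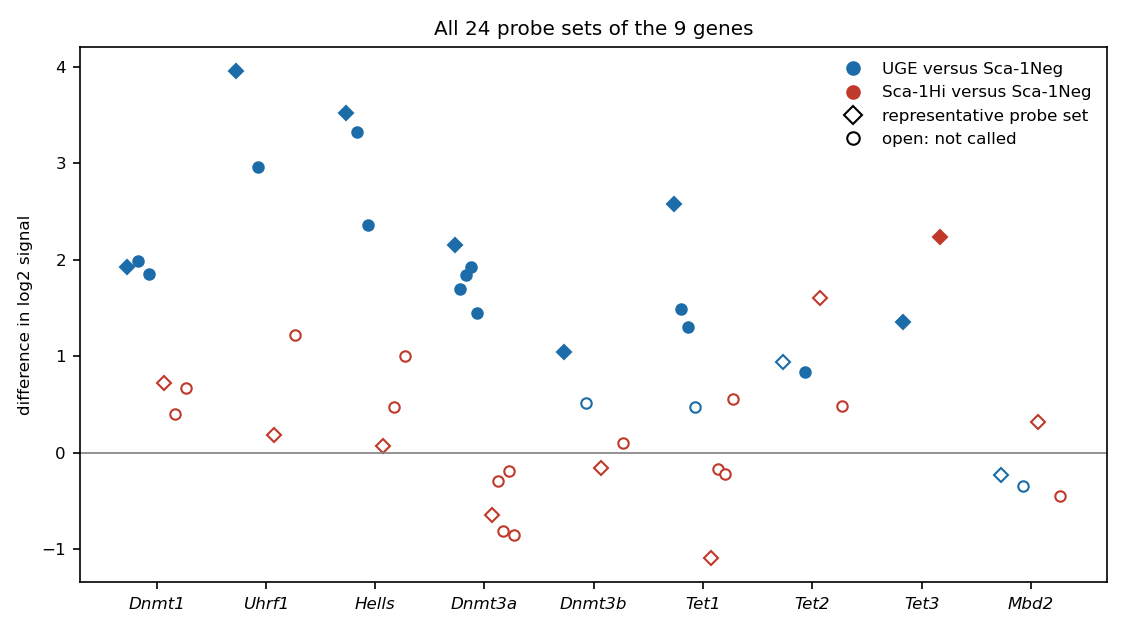
Difference in log2 signal from Sca-1Neg for every probe set of the 9 genes, for UGE (blue) and Sca-1Hi (red). Diamonds mark the probe set that stands for a gene, circles the others, and open symbols those not called. The 5 probe sets not called in UGE are 1 of Dnmt3b, 1 of Tet1, 1 of Tet2 and both of Mbd2.

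Both de novo methyltransferases were higher in the fetal epithelium. Dnmt3a had signals of 2505, 2851 and 2570.3 in UGE. It read 322, 395 and 428 in Sca-1Hi, 380.0, 242, 424 and 543 in Sca-1Lo and 513, 446, 434 and 1235 in Sca-1Neg. One Sca-1Neg array stood at 1235, above the next adult signal of 543 and below every fetal one. UGE exceeded Sca-1Neg by 2.16 ± 0.36 (SE) on the log2 scale, 4.46-fold (adjusted p = 0.000712), Sca-1Hi by 2.80 ± 0.39 (SE) and Sca-1Lo by 2.79 ± 0.36 (SE) (adjusted p = 0.000165 and 9.64e-05). All 5 Dnmt3a probe sets were called higher in UGE in all 3 comparisons, by 1.44 to 2.16 against Sca-1Neg.

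Within the adult prostate, Dnmt3a was the one methyltransferase whose Sca-1Hi signals all lay below those of Sca-1Neg. The difference was -0.64 ± 0.36 (SE) and was not called (adjusted p = 0.263, 95% interval -1.42 to 0.14). The same direction without overlap occurred in 3 of its 5 probe sets, and over all genes the 2 groups do not overlap, either way, in 21.1%. The high Sca-1Neg array also had the highest sum of smooth muscle and pericyte signals, 120308 against 39769 to 56474 on the other Sca-1Neg arrays, and of fibroblast signals, 47258 against 16575 to 22633. Fibroblast sums were higher still in Sca-1Hi replicate 3 (59993) and in Sca-1Lo replicates 3 and 4 (62149 and 77567). Dnmt3a read 428, 424 and 543 on these arrays. Their smooth muscle and pericyte sums were lower, at 36094, 17810 and 36971. The part of smooth muscle cells, pericytes and fibroblasts in the Dnmt3a level was not tested. Without the high Sca-1Neg array, UGE exceeded Sca-1Neg by 2.51.

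Dnmt3b read 192, 217 and 208 in UGE, where all 3 arrays lay above all adult ones. It read 74.0, 85.0 and 113 in Sca-1Hi, 70.8, 75.6, 93.2 and 104 in Sca-1Lo and 85.3, 87.5, 89.5 and 148 in Sca-1Neg. The same Sca-1Neg array was again the highest adult one. The difference between UGE and Sca-1Neg was 1.04 ± 0.26 (SE), 2.06-fold (adjusted p = 0.0092), and UGE exceeded Sca-1Hi by 1.20 and Sca-1Lo by 1.28 (adjusted p = 0.00605 and 0.00303). Its other probe set differed by 0.52 from Sca-1Neg and was not called (adjusted p = 0.0968), nor was it against Sca-1Hi (0.41), while against Sca-1Lo it was called higher (0.82, adjusted p = 0.0158). The calls against Sca-1Neg and Sca-1Hi rest on 1 of 2 probe sets. With both averaged the difference was 0.78, under the fold minimum. Dnmt3l, the catalytically inactive partner of the de novo enzymes, had mean signals of 26.1 in UGE and 43.1 in Sca-1Neg and was not called.

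The 3 Tet genes did not follow one pattern. Tet1 was higher in UGE, with 412, 295 and 486 in UGE. It read 36.9, 19.09 and 40.9 in Sca-1Hi, 30.9, 31.7, 60.5 and 75.1 in Sca-1Lo and 84.5, 79.5, 22.0 and 124 in Sca-1Neg. Fetal signals exceeded every adult one, and the Sca-1Neg signals spread more than for any other member (SD 1.08 on the log2 scale). UGE exceeded Sca-1Neg by 2.57 ± 0.53 (SE) (adjusted p = 0.00275) and Sca-1Hi by 3.67 ± 0.56 (SE) (adjusted p = 0.000378). Of its 3 other probe sets, 2 were called higher in UGE (1.49 and 1.30), and the dimmest was not (0.48, adjusted p = 0.256). Sca-1Hi and Sca-1Neg differed by -1.09 ± 0.53 (SE) with overlapping arrays (adjusted p = 0.191). Without the low Sca-1Neg array this turned into a call of lower, -1.62. The lowest Sca-1Hi signal, 19.09, lies near background. With all arrays, the other probe sets differed by -0.17, -0.23 and 0.56 between Sca-1Hi and Sca-1Neg, and none was called. For the dimmest (0.56), every Sca-1Hi array lay above every Sca-1Neg array.

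Tet3 was highest in the adult Sca-1Hi fraction. It read 91.7, 181 and 103 in Sca-1Hi and 60.3, 79.3 and 57.9 in UGE. In Sca-1Lo it read 55.9, 33.4, 78.4 and 82.9, and in Sca-1Neg 12.4, 17.1, 40.8 and 48.2, of which 2 lie below a signal of 20. Every Sca-1Hi array lay above every array of the other 3 groups. Sca-1Hi exceeded Sca-1Neg by 2.24 ± 0.47 (SE) on the log2 scale, 4.71-fold (adjusted p = 0.00884), and the other comparisons of Sca-1Hi were not called (1.02 ± 0.47 (SE) above Sca-1Lo, adjusted p = 0.504, and -0.88 for UGE minus Sca-1Hi, adjusted p = 0.221).

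The Tet3 call in Sca-1Hi was lost without the Sca-1Hi array of 181 (1.94, adjusted p = 0.0618). UGE exceeded Sca-1Neg by 1.36 ± 0.47 (SE) (adjusted p = 0.0466), a call at the edge of the threshold that was lost under 15 of 27 other settings, among them the removal of any 1 UGE array. Sca-1Lo exceeded Sca-1Neg by 1.22 ± 0.44 (SE) with overlapping arrays (adjusted p = 0.205). Tet3 has 1 probe set, so no second measurement stands beside it.

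Tet2 had signals of 728, 1746 and 1172 in Sca-1Hi and 337, 1166 and 967 in UGE. It read 349.9, 169, 879.7 and 635 in Sca-1Lo and 310.0, 266, 492 and 495 in Sca-1Neg. The Sca-1Hi arrays all exceeded those of Sca-1Neg and overlapped those of UGE and Sca-1Lo. The difference between Sca-1Hi and Sca-1Neg was 1.60 ± 0.56 (SE), 3.03-fold, and missed the threshold (adjusted p = 0.0774). Every Sca-1Hi array of its second probe set also lay above every Sca-1Neg array, by 0.48 ± 0.26 (SE) (adjusted p = 0.243). The probe sets divided in UGE. The brighter differed from Sca-1Neg by 0.94 ± 0.56 (SE), not called, with 1 fetal array at 337 and the others at 1166 and 967, while the second was called higher (0.84 ± 0.26 (SE), adjusted p = 0.03).

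**Figure D3:**
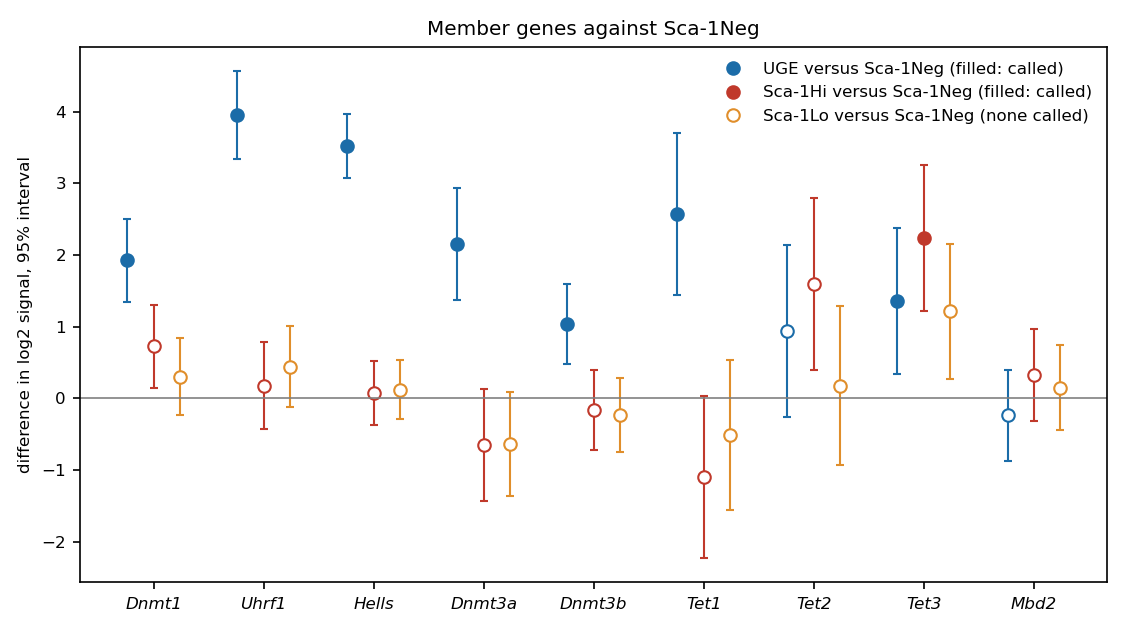
Difference in log2 signal of each member from Sca-1Neg for UGE, Sca-1Hi and Sca-1Lo, with 95% intervals from limma. Filled points were called, which holds for 7 genes in UGE, for Tet3 in Sca-1Hi and for none in Sca-1Lo.

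Mbd2, the reader, was called in no comparison. It ran from 633 to 801 in UGE, 975 to 1160.2 in Sca-1Hi, 662 to 1233 in Sca-1Lo and 579 to 1183 in Sca-1Neg. UGE differed from Sca-1Neg by -0.24 (95% interval -0.88 to 0.40) and from Sca-1Hi by -0.56 (-1.24 to 0.12), where its arrays did not overlap. Its second probe set was not called in any comparison either, with -0.35 in UGE and -0.45 in Sca-1Hi against Sca-1Neg.

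The adult arrays also fall into sets by the numbers in the study's own sample names, whose meaning it does not state. Numbers 1 and 2 cover 1 Sca-1Hi, 2 Sca-1Lo and 2 Sca-1Neg arrays, and numbers 3 to 5 cover 2 of each. With the fraction in the fit, Tet2 was higher on the arrays numbered 3 to 5, by 1.14 ± 0.25 (SE) on the log2 scale (limma adjusted p = 0.00882), and Tet3 by 1.08 ± 0.25 (adjusted p = 0.0107). Of all genes, 11.3% were called higher and 5.42% lower in this comparison, which was added after the values were seen. Mbd2 differed by 0.61 (adjusted p = 0.0224), under the fold minimum, with its 5 arrays of the lower numbers at 579 to 975 and the 6 others at 1043 to 1233. The other 6 members were not called.

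Within either set the Tet3 signals kept the order of the fractions. Among numbers 1 and 2, the Sca-1Hi array read 91.7, the Sca-1Lo arrays 55.9 and 33.4 and the Sca-1Neg arrays 12.4 and 17.1. Among numbers 3 to 5, the Sca-1Hi arrays read 181 and 103, the Sca-1Lo arrays 78.4 and 82.9 and the Sca-1Neg arrays 40.8 and 48.2. No fraction overlapped another inside a set. With the set as a block, Sca-1Hi exceeded Sca-1Neg by 2.06 (adjusted p = 0.00207) and Sca-1Lo exceeded it by 1.22 (adjusted p = 0.0396), both called. This block was chosen after the values were seen, along a split on which Tet2 and Tet3 differ, so its calls are not separate support. For Tet2 the block gave a call in Sca-1Hi, 1.41 (adjusted p = 0.0119), and none in Sca-1Lo, 0.18 (adjusted p = 0.793). With each number as its own block the Tet3 difference in Sca-1Hi was 1.94 (adjusted p = 0.0542) and that of Tet2 1.08 (adjusted p = 0.147), neither called.

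**Figure D4:**
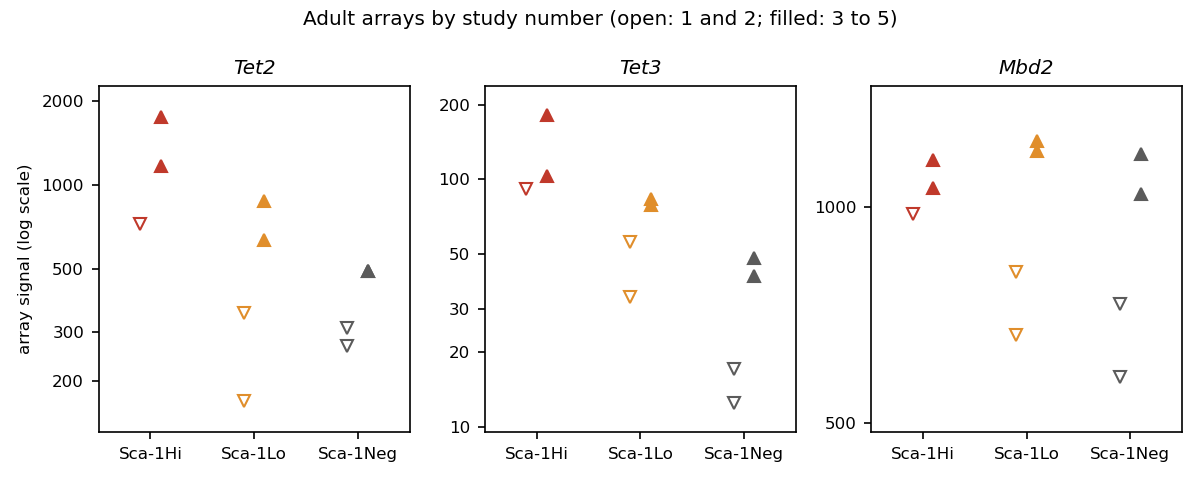
Signal (log axis) of Tet2, Tet3 and Mbd2 on the 11 adult arrays by fraction. Open triangles are arrays with study numbers 1 and 2, filled triangles those with 3 to 5, and the filled ones lie above the open ones within each fraction.

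Other values also differed between these arrays. The endothelial genes given above were at 17594 to 31426 in Sca-1Hi and at 268 to 1234 in UGE. In UGE the mean Tet2 and Tet3 signals were 823 and 65.8, against 391 and 29.6 in Sca-1Neg. UGE also differs from the adult fractions in age, dissection and sorting. The leukocyte genes were at 59339.7 and 93672 on the 2 Sca-1Neg arrays with the lowest Tet3 and at 8555 and 20460.2 on the others. The log2 ratio of the 3′ to the 5′ control probe set of Gapdh, a sign of RNA quality, was 3.07 to 3.48 in Sca-1Hi, 1.98 to 3.22 in Sca-1Lo, 1.66 to 2.75 in Sca-1Neg and 1.83 to 2.38 in UGE. The same ratio for Actb overlapped between all groups, at 1.59 to 2.77 in Sca-1Hi, 1.72 to 2.27 in Sca-1Lo, 1.17 to 2.11 in Sca-1Neg and 1.54 to 2.09 in UGE. Within Sca-1Hi, replicates 1, 2 and 3 had Gapdh ratios of 3.08, 3.07 and 3.48 and endothelial sums of 17594, 21209 and 31426. Their Tet3 signals were 91.7, 181 and 103, and their Tet2 signals 728, 1746 and 1172. In Sca-1Lo the ratio, the endothelial sum and Tet3 rose in the same order of arrays, replicates 2, 1, 3 and 4. The ratios were 1.98, 2.54, 3.10 and 3.22, the sums 9223, 9912, 19086.5 and 21989 and the Tet3 signals 33.4, 55.9, 78.4 and 82.9. In Sca-1Neg replicates 1 to 4 the ratios were 1.66, 1.84, 2.75 and 2.69, and Tet3 read 12.4, 17.1, 40.8 and 48.2. The endothelial sums of these were 2172, 2632, 2037 and 6324. The part of these values in the Tet levels was not tested.

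The higher fetal levels of the maintenance genes, and of Dnmt3a, Dnmt3b and Tet1, came together with genes of DNA synthesis and division, given here from lists of known genes. Over all genes the median difference from Sca-1Neg was 0.07 in UGE and 0.03 in Sca-1Hi, and 16.3% and 6.11% were called higher. Of 29 DNA replication genes, 26 were called higher in UGE than in Sca-1Neg and none lower, with a median of 2.13 on the log2 scale, and all 21 mitosis genes measured were higher, with a median of 3.26. Mcm3 and Mcm5, subunits of the replicative helicase, differed by 3.28 and 3.12, and the mitotic kinase Bub1 and the kinesin Kif20a by 4.08 and 4.47. Their summed signals were 36582 to 40173 in UGE for replication, against 11372 to 12978 in Sca-1Neg, and 25517 to 30940.5 against 2671 to 3371 for mitosis. In Sca-1Hi, 4 replication genes were higher than in Sca-1Neg (Rfc3, Pold1, Mcm7 and Mcm6, by 0.90 to 1.83), no mitosis gene was, and the medians were -0.04 and -0.34. The part of dividing cells in the members' fetal levels was not tested.

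The likeness of the members' patterns to other genes is given over the 14 arrays, which share the fetal and adult contrast. Nearest to Uhrf1 were Dnajc9, Hells and Rrm1, a subunit of ribonucleotide reductase, with r from 0.989 to 0.990. Among those nearest to Hells were Slc38a4 (0.993) and Mcm5 (0.992). Tet1 was closest to Kit (0.976), the stem cell factor receptor, Zc4h2 and Arnt2. Dnmt1 was closest to Llgl1 (0.973), Zfp266 and Ttyh3, Dnmt3a to 2610008E11Rik (0.985), Ago2 and Mettl14, and Dnmt3b to Msl1 (0.982), Phc1 and Kctd20. Tet2 was closest to Trpc2 (0.972), Pds5a and Ttc14, Tet3 to Foxh1 (0.962), Clec2l and Gm17250, and Mbd2 to Zmat1 (0.947), Zscan26 and Tmbim1.

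Over the 11 adult arrays alone, none of the neighbours of Uhrf1 or Hells named above remained among their nearest 3, and the closest were Hoxa4 (0.908) and Astl (0.897). Shared with the list above were Ago2 for Dnmt3a, Zc4h2 for Tet1 (0.973) and Foxh1 for Tet3 (0.977). The nearest of the other members were Prr12 for Dnmt1 (0.943), Inf2 for Dnmt3a (0.983), Hipk1 for Dnmt3b (0.973), Mir1931 for Tet2 (0.985) and Arhgef11 for Mbd2 (0.988). Among the members themselves, Uhrf1 and Hells had r = 0.86, Dnmt3a and Dnmt3b 0.85, Tet2 and Tet3 0.84 and Dnmt1 and Tet3 0.82, while Tet1 and Tet3 had -0.46. These points share the fractions, the study numbers and the array normalization.

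The partners of the members were taken from lists. Against Sca-1Neg, 16.3% of all genes were called higher and 12.9% lower in UGE, and 6.11% and 5.19% in Sca-1Hi. Of 11 cofactors and relatives of the methyltransferases, 6 were called higher in UGE than in Sca-1Neg and none lower, with a median of 0.85. They included Cdca7 (2.28), which activates the Hells remodeller, its relative Cdca7l (2.03), the replication clamp Pcna (1.58), to which Dnmt1 binds, and the corepressor Trim28 (1.36). Uhrf2, the paralogue of Uhrf1, was called higher as well (0.85), and the deubiquitinase Usp7 was not (0.71, adjusted p = 0.0923). In Sca-1Hi against Sca-1Neg none of the 11 was called and the median was -0.05.

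On the reader side, 2 of 7 other methyl-CpG binding genes measured were called higher in UGE than in Sca-1Neg, a count near the 16.3% of all genes. They were Zbtb33 (Kaiso, 1.49) and Mbd4, a glycosylase that also repairs (1.16). Against Sca-1Hi, 3 of the 7 were called higher in UGE (15.8% of all genes), and against Sca-1Lo 3 were (13.4%). Mbd3, the NuRD subunit related to Mbd2, differed by 0.79 between UGE and Sca-1Neg and was not called (adjusted p = 0.0734). Of 12 NuRD genes, 8 were higher than in Sca-1Neg (16.3% of all genes) and none lower, with a median of 0.99. Among them were the deacetylase Hdac2 (1.84) and the remodellers Chd3 (1.42) and Chd4 (1.27). Against Sca-1Hi, 2 of the 12 were called higher in UGE (15.8% of all genes), and against Sca-1Lo 3 were (13.4%). Chd4 was also the NuRD gene called in Sca-1Hi against Sca-1Neg (1.17, adjusted p = 0.0253). Of 12 genes of H3K9 methylation, a histone mark often found with DNA methylation, 5 were higher, led by Atf7ip (1.65) and the heterochromatin protein Cbx5 (1.55), and Setdb2 was lower in UGE (-0.96), Sca-1Hi (-1.48) and Sca-1Lo (-1.18) than in Sca-1Neg.

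On the eraser side, 5 of 11 genes that bind Tet proteins or supply their substrate were called higher in UGE (16.3% of all genes) and none lower, with a median of 0.81. Idh1, which makes the Tet cosubstrate 2-oxoglutarate, differed by 1.54, and Cxxc4 and Cxxc5, known partners of Tet2, by 1.80 and 1.49. The glycosyltransferase Ogt, another Tet partner, was not called (0.98, adjusted p = 0.237). None of the 11 was called in Sca-1Hi, where the median was -0.0045. The base excision and deamination list split, with 6 of 14 higher and 4 lower, against 16.3% and 12.9% of all genes. The uracil glycosylase Ung (2.67) led the higher ones. Among the lower were the stress-induced Gadd45g (-3.26) and Gadd45b (-1.96) and the deaminase Apobec1 (-2.78). In Sca-1Hi, Apobec2 was called higher (1.03).

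**Figure D5:**
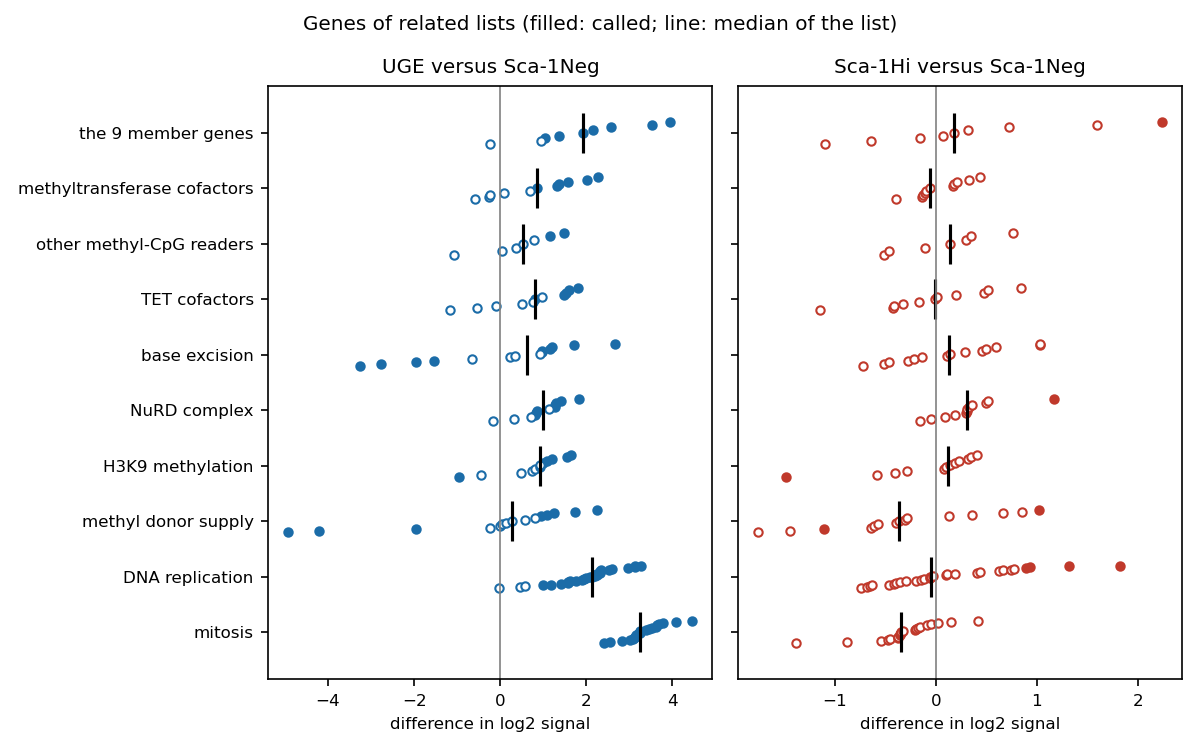
Difference in log2 signal from Sca-1Neg in UGE (left) and Sca-1Hi (right) of each gene of the member set and 9 related lists. Filled points were called, and the line marks the median of a list. In UGE the replication and mitosis medians, 2.13 and 3.26, lie beside the members' 1.92, and in Sca-1Hi the medians of the lists plotted lie between -0.36 and 0.31.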

How the data were processed

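RNA of 14 samples was labelled in 2 cycles by the authors and hybridized to Affymetrix MOE430 2.0 arrays. The deposited intensity values are linear PLIER signals made by the authors with ArrayAssist. How arrays were normalized to each other is not given in the sources used here. The authors' MAS5 calls were left aside. Over all probe sets an array's median signal was 64.2 to 80.8, and the number of arrays limits precision.

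Signals were taken to log2 with no constant added. Of 45101 probe sets, 64 are array controls, and the 41031 others that exceeded 20 on any array were fitted as 4 group means with limma 3.58.1 (lmFit and eBayes) in R 4.3.3. Probe sets past 1.75-fold with a p below 0.05 after Benjamini-Hochberg adjustment were called. The methods used a t-test on transcripts they had preselected. The t-test run here as an alternative used all 41031 probe sets, so its counts are not those of the methods' procedure. The platform annotation gives 1 gene for 34945 probe sets, several for 932 and none for 9160. The representative probe sets of 17136 genes were tested and give each gene's call. All 9 members are named, with the 3 genes nearest to each by Pearson correlation (1 is not reported here, and only some are given over the adult arrays), and up to 4 called genes of each list with the largest difference in UGE or Sca-1Hi against Sca-1Neg. Uhrf2 and the uncalled list genes were named after their values were seen. Members and lists were chosen with earlier results of these data known. Study numbers were joined to arrays by values equal within 1.2e-05 over 1050 probe sets. Alternatives were other filters, 16 added before log2, 2 normalizations, blocks, parts of the arrays, other rules for a gene's probe set, no fold minimum and each array left out. The fit was tested on simulated data. Tables and figures were made with Python 3.11.15, pandas 2.3.3, numpy 2.4.6 and matplotlib 3.10.9.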

Additional observations from a re-analysis of the deposited data

Results flagged for a closer look

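Of 48 groups of 4 arrays tested, one for each probe set of a member in Sca-1Lo or Sca-1Neg, 5 had an array far from the others, and chance gives 1 in 20, or 2.4. The value given is the gap to the nearest array as a share of the group's range. The Sca-1Neg array that stood high in Dnmt3a, at 1235 against 434 to 513 (0.840), did so in Dnmt3b too, at 148 against 85.3 to 89.5 (0.913). It is the array with the highest smooth muscle and pericyte sum. A Tet1 probe set that did not stand for the gene was low on the second Sca-1Neg array, at 16.5 against 26.6 to 28.2 (0.896). The dim Uhrf1 probe set was high on the third, at 10.1 against 4.25 to 4.90, all under a signal of 20 (0.836). A Dnmt1 probe set was low on the second Sca-1Lo array, at 130.1 against 182 to 192 (0.857).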

How the results depend on the processing

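Of 20 calls of a member in a comparison, 15 held under every other setting run, and none of the 20 changed sign. With UGE against Sca-1Neg, 7 members were called, and 4 by a t-test over all 41031 probe sets, without the selection of transcripts that preceded it in the methods. Leaving out 1 array at a time gave 6 to 7 there, 6 throughout against Sca-1Hi and Sca-1Lo, 0 throughout in Sca-1Lo against Sca-1Neg and Sca-1Hi against Sca-1Lo, and 0 to 2 in Sca-1Hi against Sca-1Neg, 0 without Sca-1Hi replicate 2 and 2 without Sca-1Lo replicate 2 or Sca-1Neg replicate 3. That last comparison, with 1 member called, gave 2 after quantile normalization, after centring on the 75th percentile, with only the 2 groups in the fit and with the study number sets as a block, and 0 by the t-test and with each study number as a block. Blocking on the labels' replicate number gave 3 (Dnmt1, Tet2 and Tet3). The labels do not say whether these numbers pair the samples. Residuals of arrays with the same number correlated from -0.45 to 0.56, over 0.1 in 11 of 19 pairs. Of the 54 other pairs, 19 were over 0.1 (-0.68 to 0.70). Sca-1Lo and Sca-1Neg arrays with the same number also share the study's own number, and their residuals correlated at 0.18, 0.41, 0.12 and 0.56. The reported fit uses no pairing, and the block moved no other count by over 1.5 times. Sca-1Lo against Sca-1Neg, with 0, gave 1 with the study number sets as a block, chosen after seeing the data. Lost calls beside Tet3 were those of Dnmt3b in UGE against Sca-1Neg (t-test, study numbers 3 to 5 only, mean of probe sets), Tet1 there (t-test) and Dnmt1 in UGE against Sca-1Hi (study numbers 1 and 2 only). Tet3 in UGE against Sca-1Neg was 0.56 with study numbers 3 to 5 only. The cause was not tested. Signals under 20 lie near background, among them some of Tet3 in Sca-1Neg, 1 of Tet1 in Sca-1Hi and those of the second Uhrf1 probe set on adult arrays. Some signals of the dimmest Hells and Dnmt3a probe sets on adult arrays are under 20 too. The 3 or 4 arrays in a group limit precision.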

Other observations

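Transcripts of methyl group supply moved both ways. Of 15 genes of the S-adenosylmethionine and folate cycles that passed the signal filter (17 have a probe set), 5 were called higher in UGE than in Sca-1Neg and 3 lower, against 16.3% and 12.9% of all genes. Higher was, among others, the thymidylate synthase Tyms (2.25). Lower were Cbs (-4.21), which draws homocysteine away, Mthfd2 (-1.96) and Gnmt, the glycine methyltransferase that consumes S-adenosylmethionine. Gnmt had a mean signal of 12.0 in UGE, under 20, and 602 in Sca-1Neg, so no size is given for its difference. In Sca-1Hi, Shmt1 was higher (1.02) and Mthfd2 lower (-1.10).

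Germline genes that DNA methylation keeps silent in somatic cells were near the floor. Of 17 with a probe set, 9 had a signal above 20 on some array, and their summed signals ran from 269 to 359.7 in UGE, 406 to 457 in Sca-1Hi, 389 to 554 in Sca-1Lo and 325 to 438 in Sca-1Neg. The meiotic gene Sycp3 was called lower in UGE than in Sca-1Neg, with mean signals of 9.42, under 20, and 39.4, so no size is given. Against Sca-1Neg, none of the 9 was called higher in UGE, Sca-1Hi or Sca-1Lo, and UGE was called lower for 2 against Sca-1Hi and for 1 against Sca-1Lo. Of 7 genes whose products bind unmethylated CpG or relate to it, with medians of 0.51 in UGE and 0.60 in Sca-1Hi, Kdm2b was higher in UGE (1.41) and in Sca-1Hi (0.97), and Ctcf differed by 0.56 and 0.75, not called. Markers of luminal cells were called higher in UGE for 3 of 6 genes (16.3% of all genes) and in Sca-1Hi for 2 (6.11%). Urothelial ones were called higher in UGE for 4 of 6.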
